A study of Chrysanthemum x morifolium with 12 samples.

Results

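Each array held 176026 contig probes of chrysanthemum (Chrysanthemum morifolium). The study named 3 of them RADIALIS-LIKE SANT/MYB 4 in its lists of changed transcription factors: PD0028_048158, PD0028_064158 and PD0028_102746. Probes of that name outside those lists were not sought. The 3 probes were chosen by name because they were undetected in petals of the green cultivar Feeling Green (FG) and high in its leaves. Their FG petal and leaf levels are therefore given as a description, without a test. RNA had been hybridized to 12 one-color arrays, with 3 arrays in each of 4 groups: mature leaves of FG, and stage-matched ray petals, from the middle of flower development, of Feeling Green Dark (FGD), Feeling White (FW) and FG. FGD, with dark green flowers, and FW, with white flowers, are bud sports of FG, so that all groups share 1 parental background. All plants were grown in a greenhouse under natural daylight, and the sources give 3 biological replicates a group without saying which plants they came from. Each cultivar is thus a single clonal line, and the leaves were of FG alone.

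RADIALIS of snapdragon encodes a small protein with a single MYB-type (SANT) domain, and it is known for giving dorsal petals their identity and so making the flower asymmetric. It acts downstream of CYCLOIDEA and opposes DIVARICATA, a larger MYB protein, by competing with it for the same partner proteins. The RADIALIS-LIKE (RAD-like) family holds several such small proteins in other plants, some of them active outside the flower, and it is distinct from the R2R3-type MYB4 of Arabidopsis despite the similar short name. All 3 probes were annotated with the same closest Arabidopsis gene, AT1G19510 (RAD-like 5). Cultivated chrysanthemum is polyploid, and whether the probes read 1 transcript or several gene copies was not tested.

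The only sequences used here are the primers the study designed for RT-qPCR of the gene it called MYB4. They are shown because they are the only sequence of that gene given with the study, and the RT-qPCR values were not analysed here. The forward primer has 26 bases and a GC content of 42.31%, and the reverse primer has 24 bases and a GC content of 41.67%.
MYB4 forward: gggatatcatgcaaattgaatccgac
MYB4 reverse: ttcagaagcctttgttcatttgcg

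The array quality bears on the members as follows. The scanner software gives a background-corrected intensity for each spot, called the signal here, and marks whether the spot was well above background; a probe so marked is called detected. The 75th percentile of the signals was 188 to 209.5 on FG leaf arrays, 308 to 347 on FGD petal arrays, 308 to 326.5 on FW petal arrays and 339 to 346 on FG petal arrays, and a level below is the log2 of a signal over that percentile. The share of detected probes was 63.2% to 65.2% in FG leaves, 67.0% to 69.6% in FGD petals, 65.6% to 67.6% in FW petals and 67.97% to 68.4% in FG petals. The 12 arrays were on 3 slides. The FG petal arrays were together on 1 slide with FW petal replicate 1, and the FG leaf arrays were together on another with FGD petal replicate 3. For the green tissues, levels are given of enzymes of chlorophyll (Chl) biosynthesis that the study reported as highest in leaves on these arrays. They are therefore no independent check of the labels. CHLH, a subunit of Mg-chelatase, had a mean log2 level of 6.24 in FG leaves and 2.67 in FG petals, CRD, the cyclase subunit, of 8.39 and 5.47, and PORC, a protochlorophyllide oxidoreductase, of 7.65 and 5.46. Not all of the 22 Chl biosynthesis probes were higher in leaves. PORA averaged −2.05 in FG leaves and −0.89 in FG petals, PORB 2.70 and 2.82, and HEMC 0.99 and 1.03. No marker of a cell layer or cell type was available, and in such bulk tissue fewer cells of a type and less RNA per cell cannot be told apart.

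The SANT/MYB 4 probes were bright in FG leaves, dim but detected in the petals of both bud sports, and not detected in FG petals. PD0028_048158 had signals of 2409, 2340 and 1162 in FG leaves, 85.4, 115 and 53.6 in FGD petals, 54.6, 60.8 and 32.6 in FW petals, and 2.49, 1.80 and 1.80 in FG petals. Its leaf arrays stood far above all petal arrays, and its FGD and FW arrays overlapped. PD0028_064158 had signals of 843, 929 and 442 in FG leaves, 35.0, 53.3 and 23.9 in FGD petals, 22.8, 25.2 and 10.5 in FW petals, and 1.66, 2.58 and 1.63 in FG petals. The order of its group means was that of the first probe, again with FGD and FW arrays that overlapped. PD0028_102746 had signals of 680, 789 and 370 in FG leaves, 32.9, 55.2 and 26.3 in FGD petals, 19.1, 13.98 and 12.1 in FW petals, and 2.62, 1.77 and 1.72 in FG petals. For this probe alone of the 3, every FGD array was above every FW array.

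**Figure D1:**
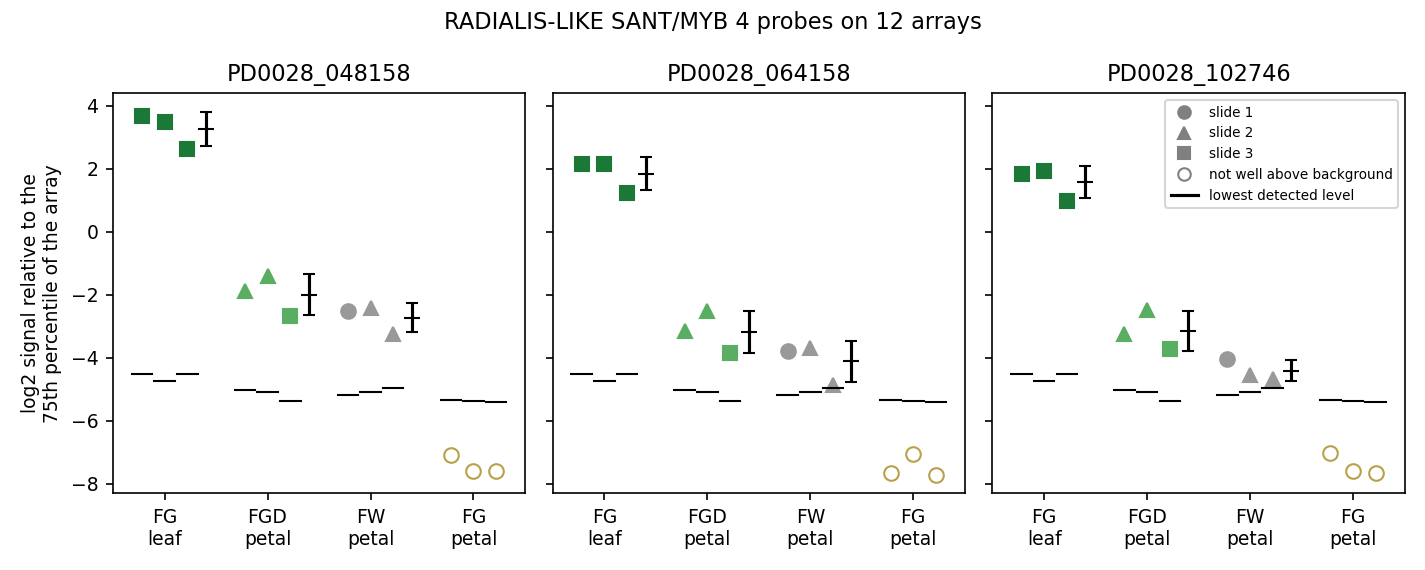
Log2 signal of each SANT/MYB 4 probe relative to the 75th percentile of its array (vertical axis) on the 3 arrays of FG leaves, FGD petals, FW petals and FG petals, with the marker shape giving the slide, open markers for spots not well above background, short black lines for the lowest detected level on each array, and the mean and SD of detected groups beside the points. All 9 FG petal values lie below that line, and PD0028_064158 on FW petal replicate 3 lies just above it.

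On the log2 scale the mean level of PD0028_048158 was 3.26 ± 0.55 in FG leaves, −1.998 ± 0.64 in FGD petals and −2.73 ± 0.45 in FW petals (SD, n = 3 each). That of PD0028_064158 was 1.84 ± 0.53 in FG leaves, −3.18 ± 0.66 in FGD petals and −4.12 ± 0.66 in FW petals. That of PD0028_102746 was 1.57 ± 0.52 in FG leaves, −3.15 ± 0.63 in FGD petals and −4.42 ± 0.34 in FW petals. For each probe the mean level therefore fell in the order FG leaf, FGD petal, FW petal, with FG petals below the detection limit. The brightness of a spot also depends on the sequence of its probe, so the 3 probes were not ranked against each other. In FG petals the SD of log2 values describes values at background and is not given.

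All FG petal spots of the 3 probes were well under the detection limit. The 9 FG petal signals were 19.9% to 31.6% of the lowest signal of any detected probe on the same array, which was 8.21 to 8.28. On each array 600 negative control spots measure the signal with no matching transcript, and their median was 1.86 to 1.91 on FG petal arrays. For each probe, 1 of the 3 FG petal spots carried the weaker mark of a positive and significant signal. These were PD0028_048158 on replicate 1, PD0028_064158 on replicate 2 and PD0028_102746 on replicate 1, where 98.3%, 98.3% and 98.5% of the negative controls were dimmer. On the remaining FG petal spots 1.67% to 41.0% of the negative controls were dimmer. The software's own error estimate was 64.5% to 101% of the signal for the FG petal spots, and much smaller elsewhere, at 10.5% to 21.2% for the FW spots. The FW spots included the nearest detected values to the limit. PD0028_064158 on FW petal replicate 3 was at 106.9% of it, and PD0028_102746 was at 123% to 225% of it on the FW arrays.

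Because FG petals had no measured level, differences from them are lower bounds. Each is the mean of the brighter group over the lowest detected level on the FG petal arrays. Relative to FG petals, PD0028_048158 was at least 398-fold higher in FG leaves, at least 10.4-fold higher in FGD petals and at least 6.29-fold higher in FW petals. PD0028_064158 was at least 149-fold higher in FG leaves, at least 4.59-fold higher in FGD petals and at least 2.40-fold higher in FW petals. PD0028_102746 was at least 124-fold higher in FG leaves, at least 4.69-fold higher in FGD petals and at least 1.95-fold higher in FW petals. For all 3 probes every array of each of these groups was above every FG petal array. The choice of the probes fixed this direction for leaves, and the listing by the study fixed it for FGD petals. For PD0028_048158 that listing fixed it for FW petals too. Among all probes tested, every array was above every FG petal array for 35.3% in leaves, 25.3% in FGD petals and 38.6% in FW petals. On the slide that held FG petals with FW petal replicate 1, that FW array was at least 7.27-fold, 3.03-fold and 2.55-fold above FG petals for PD0028_048158, PD0028_064158 and PD0028_102746. FG petals shared no slide with leaves or FGD petals, so no value within a slide could be had for those differences. With normexp background correction, which adds an offset and compresses dim signals, the bounds of leaves over FG petals were 51.4-fold, 22.4-fold and 17.4-fold for the same probes in that order.

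This pattern of detection was rare on the array. Of 176026 probes, 45 (0.0256%) were detected on all 9 arrays of FG leaves, FGD petals and FW petals and on none of the 3 FG petal arrays, and the 3 SANT/MYB 4 probes were among them. As the pattern was part of how the probes were chosen, nothing is read from their presence there. No other probe named in the tables of the study was among the 45. The same pattern turned on another group was shown by 4133 probes (2.35%) for FG leaves, 148 probes (0.0841%) for FGD petals and 553 probes (0.314%) for FW petals. Of the 45 probes, 24 had mean levels in the order FG leaves above FGD petals above FW petals, and 6 had a leaf bound at least as large as the smallest of the 3 SANT/MYB 4 probes. The other 3 of these 6, named after their values were seen, were PD0028_125138 at least 258-fold, PD0028_050889 at least 204-fold and PD0028_020739 at least 200.1-fold higher in FG leaves than in FG petals, and no gene name was paired with them. PD0028_125138 averaged −4.62 in FGD petals and −1.25 in FW petals, PD0028_020739 −4.41 in FGD petals and −3.75 in FW petals, and PD0028_050889 −3.63 in FGD petals and −3.71 in FW petals.

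Leaves were far above the petals of both bud sports too. The leaf mean of PD0028_048158 was 38.2-fold that of FGD petals and 63.3-fold that of FW petals. For PD0028_064158 the leaf mean was 32.6-fold that of FGD petals and 62.3-fold that of FW petals, and for PD0028_102746 26.5-fold and 63.6-fold. The lowest leaf array exceeded the highest FGD array by 4.05, 3.77 and 3.46 on the log2 scale for PD0028_048158, PD0028_064158 and PD0028_102746, and the highest FW array by 5.06, 4.93 and 5.01. Among all probes tested, all leaf arrays were above all FGD arrays for 35.5% and above all FW arrays for 33.9%. On the slide that held the leaf arrays with FGD petal replicate 3, leaves were 61.8-fold, 52.0-fold and 39.3-fold above that FGD array, which was the lowest of the FGD arrays for each probe. The signals of the leaf arrays as a whole were lower, so the scaling to the 75th percentile raised them. Without it the log2 differences of leaves from FGD petals were 4.53, 4.31 and 4.01 in place of 5.25, 5.03 and 4.73, while the median over all probes was −0.826 in place of −0.107.

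The comparison of FGD with FW petals sets neither FG petals nor leaves against another group and could be tested. Its estimate of the spread did come from all 12 arrays. The probes also passed the minimum mean signal of 100 for a test only through their leaf signals. The question was whether the dark green and the white bud sport differ in the levels of these probes. The mean of PD0028_102746 was 2.40-fold higher in FGD petals, a log2 difference of 1.27 (SE 0.34, 95% interval 0.50 to 2.03, adjusted p = 0.00933 from limma), with a gap of 0.31 between the lowest FGD and the highest FW array. The mean of PD0028_064158 was 1.91-fold that of FW petals, a log2 difference of 0.94 (SE 0.41, 95% interval 0.03 to 1.85), which missed the threshold of 0.05 after adjustment (adjusted p = 0.0732). The mean of PD0028_048158 was 1.66-fold that of FW petals, a log2 difference of 0.73 (SE 0.36, 95% interval −0.07 to 1.53, adjusted p = 0.107). Thus 1 of the 3 probes was called higher in FGD petals and the other 2 were not called after adjustment, with intervals that reached 1.85 and 1.53. The calls were the same in limma with no minimum signal (adjusted p = 0.189, 0.136 and 0.0232 for PD0028_048158, PD0028_064158 and PD0028_102746). They were also the same with FGD and FW arrays only (adjusted p = 0.130, 0.108 and 0.0172). Over the 70270 probes tested, 24% were called higher in FGD than in FW petals, 33.6% lower and 57.6% in either direction, so that a call in this comparison was common. The study listed all 3 probes on FGD against FG petals, and PD0028_048158 also on FW against FG petals. The FGD arrays thus took part in choosing all 3 probes, and the FW arrays in choosing PD0028_048158. The calls are therefore no independent evidence of a difference.

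The calls depended on which arrays and slides entered the difference and on the treatment of dim signals. On the slide that held FGD replicates 1 and 2 with FW replicates 2 and 3, the log2 difference was 1.18, 1.44 and 1.74 for PD0028_048158, PD0028_064158 and PD0028_102746, and with the slide as a block in limma all 3 probes were called (adjusted p = 0.0332, 0.0305 and 0.00513). The block fit gave the same differences as that slide alone, so it is no second result. FW petal replicate 1 and FGD petal replicate 3 shared their slides only with FG petals or leaves and so played no part in them. FGD petal replicate 3 was the lowest FGD array of each probe. Under that block 35539 of the 70270 probes tested were called, 14913 of them higher in FGD petals. With normexp background correction none of the 3 probes was called, and the differences were 0.39, 0.23 and 0.39 (adjusted p = 0.184, 0.385 and 0.126).

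The replicate arrays moved together across the 3 probes. Replicate 3 was the lowest array in 9 of 9 combinations of probe and group among FG leaves, FGD petals and FW petals, with deviations of −0.76 to −0.25 from the group mean on the log2 scale. For PD0028_048158 this was a deviation of −0.63 in FG leaves, −0.70 in FGD petals and −0.51 in FW petals. Over those 9 arrays the deviations from the group means had a Pearson r of 0.976 between PD0028_048158 and PD0028_064158, 0.887 between PD0028_048158 and PD0028_102746 and 0.864 between PD0028_064158 and PD0028_102746. The points share their arrays, and with them their RNA and scaling, so r and the count of 9 are descriptions. The 75th percentile was 191, 209.5 and 188 on leaf replicates 1, 2 and 3 and so lowest on replicate 3, and it was 313, 308 and 347 on FGD petal replicates 1, 2 and 3 and 313, 326.5 and 308 on FW petal replicates 1, 2 and 3. CHLH, with log2 levels of 6.44, 6.07 and 6.22 on leaf replicates 1, 2 and 3, was not lowest there. The low replicate 3 was not confined to these probes. PD0028_006794, annotated as SANT/MYB 3, another RADIALIS-LIKE name, was lowest on replicate 3 in leaves (3.09), FGD petals (−0.57) and FW petals (−5.72, not detected). PD0028_092972, with the same annotation, was lowest there in leaves (5.20) and FGD petals (1.60), but on replicate 1 in FW petals (−3.92). The share of all probes lowest on replicate 3 was not counted. Other properties of the replicate 3 arrays were not tested for a part in these low levels.

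**Figure D2:**
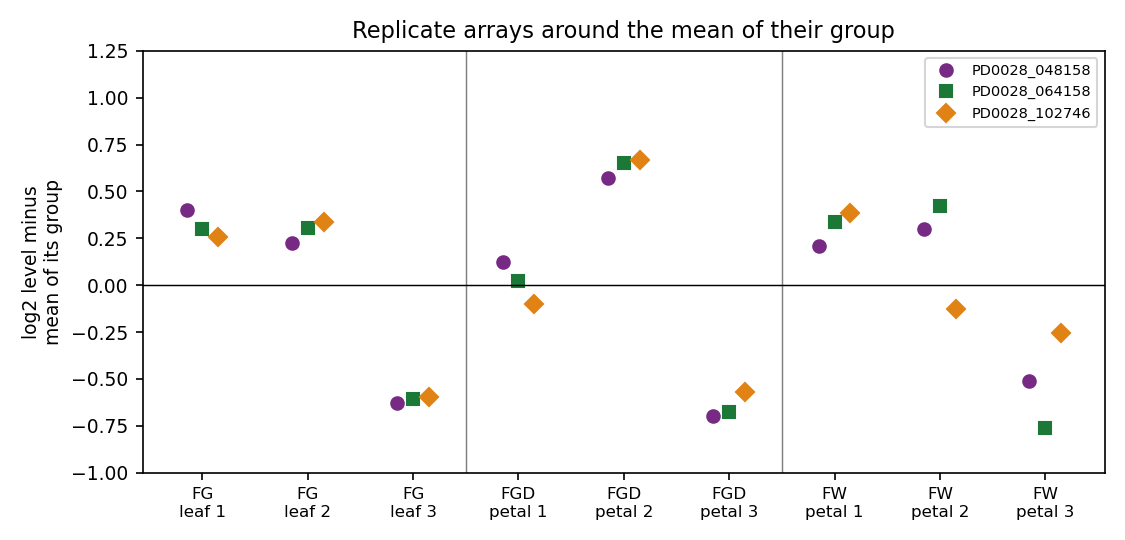
Log2 level of each SANT/MYB 4 probe minus the mean of its group (vertical axis) on the 9 arrays of FG leaves, FGD petals and FW petals, with 1 marker shape for each probe. Replicate 3 is below the mean for every probe in every group, and FGD petal replicate 2 is the highest FGD array for all 3.

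The other RADIALIS-LIKE gene named on the array, SANT/MYB 3, has RAD-like 6 as its annotation and also 3 probes. Its probes did not share one pattern. PD0028_092972 had signals of 11758, 13781 and 6915 in FG leaves, 2156, 1744 and 1053 in FGD petals, 20.7, 56.5 and 30.6 in FW petals, and 15.6, 43.4 and 9.26 in FG petals. PD0028_006794 had signals of 2914, 3529 and 1593 in FG leaves, 438, 385 and 234 in FGD petals, 8.18, 8.11 and 5.86 in FW petals, and 4.23, 6.68 and 1.65 in FG petals. Both were high in FG leaves and FGD petals and low in FW petals and FG petals, and PD0028_006794 was not detected in FW petals or FG petals. PD0028_010170 had signals of 41.2, 27.0 and 6.83 in FG leaves, 843, 1037 and 926 in FGD petals, 18.0, 16.3 and 12.6 in FW petals, and 551, 628 and 584 in FG petals. It was low in leaves and bright in FG petals, the reverse of SANT/MYB 4.

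All 3 SANT/MYB 3 probes were called higher in FGD than in FW petals, as were 24% of all probes tested. The study listed PD0028_006794 and PD0028_092972 on FGD against FG petals and PD0028_010170 on FW against FG petals. The FGD or FW arrays thus took part in choosing them, and the calls are no independent evidence. The log2 difference was 5.55 for PD0028_092972 (SE 0.55, adjusted p = 1.50e-05 from limma) and 5.89 for PD0028_010170 (SE 0.49, adjusted p = 4.32e-06). PD0028_006794 was at least 35.8-fold higher in FGD petals. Its adjusted p of 5.43e-06 from limma belongs to the log2 difference of 5.51 from FW signals that were not detected, and does not test that bound. The differences of PD0028_092972 and PD0028_010170 were 47.0-fold and 59.2-fold, against 1.66-fold to 2.40-fold for the SANT/MYB 4 probes. Whether the differences of the SANT/MYB 3 and SANT/MYB 4 probes differ from each other was not tested. In FW petals all probes of SANT/MYB 4 were detected on all arrays. Of SANT/MYB 3, PD0028_092972 was detected on 3 FW arrays, PD0028_010170 on 2 and PD0028_006794 on none. The FW signals of PD0028_006794 were 59.7% to 96.3% of the lowest detected signal on the same array.

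**Figure D3:**
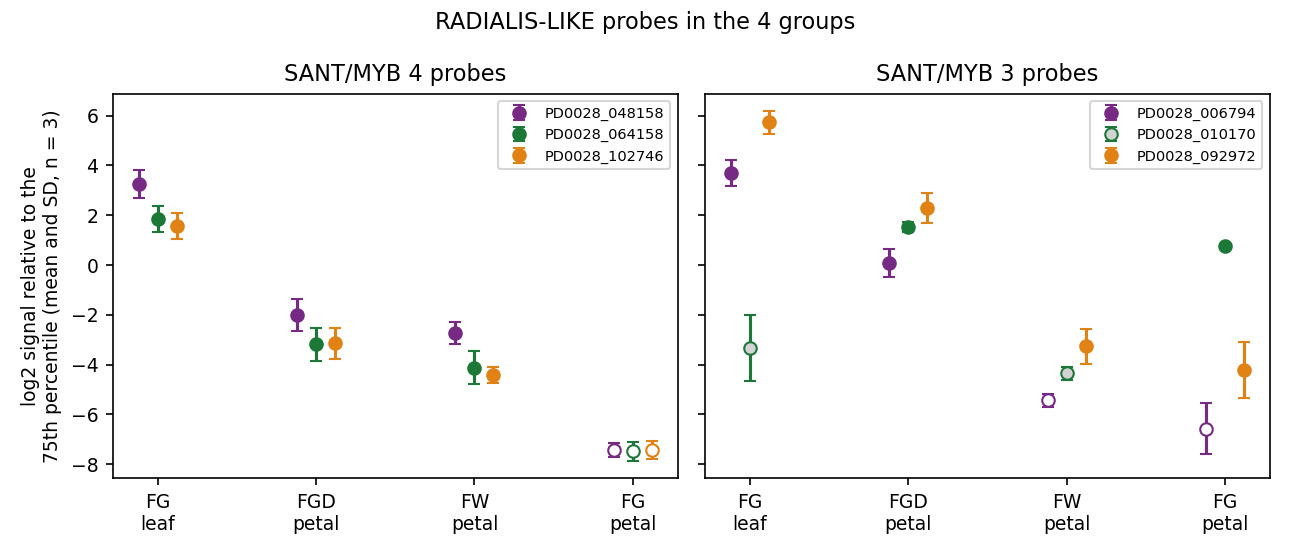
Mean log2 level with SD of the 3 SANT/MYB 4 probes and the 3 SANT/MYB 3 probes (vertical axis, relative to the 75th percentile of each array, n = 3) in FG leaves, FGD petals, FW petals and FG petals, with filled markers for probes detected on 3 arrays, grey fills for some arrays and open markers for none. The SANT/MYB 4 probes are open in FG petals alone, and PD0028_010170 is bright in FG petals and dim in leaves; heights of different probes are not comparable.

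The probes with the most similar profile were sought over the 12 arrays among 123210 probes detected on all arrays of at least 1 group. Among the SANT/MYB 4 probes themselves Pearson r was 0.992 to 0.994. The probes most similar to PD0028_048158 were PD0028_121757 (r = 0.986), PD0028_102944 (r = 0.986) and PD0028_084252 (r = 0.984). Those most similar to PD0028_064158 were PD0028_121757, PD0028_012859 and PD0028_032721, each with r = 0.991. Those most similar to PD0028_102746 were PD0028_099927 (r = 0.990), PD0028_121757 (r = 0.989) and PD0028_102944 (r = 0.987). None of them was paired with a gene name, and all were detected in every group. Their range was smaller, as PD0028_121757 averaged 3.08 in FG leaves, 2.57 in FGD petals, 2.47 in FW petals and 2.12 in FG petals. Of the 123210 probes compared, 215, 387 and 393 reached r = 0.95 with PD0028_048158, PD0028_064158 and PD0028_102746. The 12 points fall into 4 groups and in FG petals the members were at background, so r is again a description, with no test. Among probes named in the tables of the study the highest r was with SANT/MYB 3 PD0028_006794 (0.901 to 0.933), SANT/MYB 3 PD0028_092972 (0.889 to 0.920) and CHLG, the Chl synthase (0.824 to 0.874).

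Other regulators that the study listed on these arrays, and which are therefore no independent evidence, differed between FGD and FW petals as follows. Of 5 other MYB probes, the 4 for MYB113, an activator of anthocyanin synthesis in Arabidopsis, were called lower in FGD petals, for example PD0028_044920 by a log2 difference of −3.76 (adjusted p = 2.08e-06). The remaining one, MYB15 PD0028_148039, had a difference of 0.02 (adjusted p = 0.979). Of 9 probes for other transcription factors listed as higher in FGD than in FG petals, 8 were called higher in FGD than in FW petals, with a median difference of 2.83 over the list. With the slide as a block 6 of the 9 were called, and IAA29 PD0028_007777 (adjusted p = 0.125) and SHN3 PD0028_071210 (adjusted p = 0.101) were not. The called probes in the fit without the block included KANADI 4 PD0028_113111, which acts in ovule integuments of Arabidopsis, at least 6.21-fold higher, and NTL8 PD0028_033512, a NAC factor tethered to membranes, with a log2 difference of 3.58. FHA-domain probe PD0028_081008 was the exception, with a difference of −0.51 (adjusted p = 0.220). Of 22 Chl biosynthesis probes, 15 were called higher and 1 lower, with a median of 1.18. The median was 0.94 for the SANT/MYB 4 probes and −0.10 over all 70270 probes tested, of which 16863 were called higher and 23628 lower. Of the 5 other MYB probes 2 reached the minimum mean signal, of the 9 factors 1 and of the 22 Chl biosynthesis probes 16. The rest were fitted with all 176026 probes, of which 23353 were called higher in FGD petals and 27722 lower. The list medians include those dimmer probes, unlike the −0.10.

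For CHLH, a Chl biosynthesis gene, the order of the petals was another. CHLH had signals of 16543, 14060 and 13969 in FG leaves, 3870, 3780 and 4971 in FGD petals, 459, 586 and 431 in FW petals, and 2078, 2601 and 1928 in FG petals. It was lowest in the white petals of FW, while all 3 SANT/MYB 4 probes were detected in FW petals and not in the green petals of FG. The SANT/MYB 4 probes were chosen as undetected in FG petals. CHLH is a gene that the study reported on these arrays as matching Chl content. The choice of the probes thus fixed this contrast, and nothing is read from it.

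**Figure D4:**
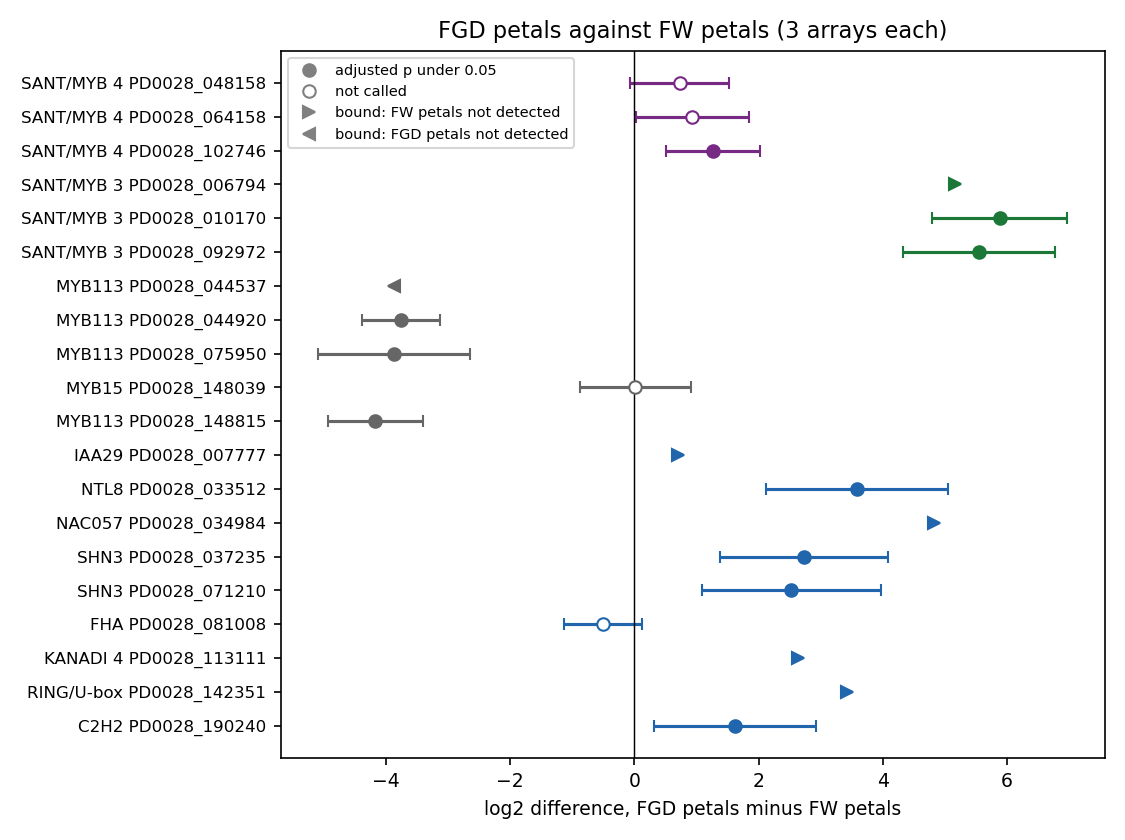
Log2 difference of FGD petals minus FW petals (horizontal axis) for the SANT/MYB 4, SANT/MYB 3, other MYB and other transcription factor probes, with 95% intervals, filled circles for an adjusted p under 0.05, open circles for probes not called and triangles for lower bounds where 1 side was not detected. The SANT/MYB 4 probes lie at 0.73 to 1.27, with PD0028_102746 called, and the SANT/MYB 3 probes lie above 5.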

How the data were processed

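The authors deposited the scanner output of 12 one-color arrays (Agilent Feature Extraction 10.10.1.1 per the file headers, 10.7.1.1 in the submitters' processing notes), with an intensity for each of 176026 contig probes after background subtraction. They also deposited a table of log2 values, whose group differences matched those computed here within 3.2e-05. The members and lists were chosen with earlier results of these data known. Here the level of a probe was the log2 of its intensity minus the log2 of the array's 75th percentile over contig probes, without control spots. Outlier spots (7 to 37 on an array) were treated as missing, and none was saturated. The 70270 probes with a mean signal of at least 100 over the 12 arrays, which included all 3 SANT/MYB 4 probes, were fitted with limma 3.58.1 in R 4.3.3 (1 mean for each group, moderated variances, Benjamini-Hochberg adjustment, two-sided), and listed probes under that minimum were fitted with the whole array. A probe was called at an adjusted p under 0.05. Where no array of a group was well above background, the difference is a bound against the higher of the probe's level and the lowest detected level, averaged over that group's arrays. The fit was tested on simulated data. Named probes were the members, the lists of MYB and other factors, CHLH, CRD and PORC, and the most similar probes. Alternatives were other normalizations and filters, normexp (offset 50), a floor of 100, trended and robust variances, outlier spots kept, a fit of FGD and FW petals only, the authors' table, replicate and slide blocks, other detection calls and leaving out each array. The slide subset and no scaling were chosen after seeing the data. The number of arrays in a group (3) limits the precision. RT-qPCR values were not analysed here. Probes are named through the tables of the study.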

Additional observations from a re-analysis of the deposited data

How the results depend on the processing

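For FGD against FW petals, the count of 40491 called probes was 35327 to 41906 when single arrays were left out and stayed within 1.5 times under every alternative. PD0028_102746 stayed called except with normexp (0.39, adjusted p = 0.126) and with signals floored at 100 (0.00), where its petal signals all lie below the floor. PD0028_048158 and PD0028_064158, not called at first, were called with the slide as a block (1.18 and 1.44, adjusted p = 0.0332 and 0.0305). With only the arrays of the shared slide, on which those differences rest, PD0028_048158 was called (1.18, adjusted p = 0.0383), and PD0028_064158 had an adjusted p of 0.0566. Leaving out single arrays gave 0.44 to 1.08, 0.56 to 1.27 and 0.93 to 1.55 for PD0028_048158, PD0028_064158 and PD0028_102746. Without FGD replicate 3 the first pair were called (1.08, adjusted p = 0.0244, and 1.27, adjusted p = 0.0275). The cause was not tested.

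The sources do not say whether the replicate numbers pair the arrays. Same-numbered FGD and FW arrays had correlations of −0.361, −0.120 and −0.267 between their deviations from the group means. For replicates 1 and 3 these arrays were on different slides, so the correlations cannot decide whether the numbers pair them. With the replicate number as a block PD0028_048158 (0.73, adjusted p = 0.0160), PD0028_064158 (0.94, adjusted p = 0.00316) and PD0028_102746 (adjusted p = 0.00315) were all called. In that fit 38906 of the 70270 probes tested were called, 16375 of them higher in FGD petals.

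The log2 bounds over FG petals for PD0028_048158, PD0028_064158 and PD0028_102746 were, with normexp, 5.68, 4.48 and 4.13 in leaves, 1.35, 0.77 and 0.75 in FGD petals and 0.96, 0.54 and 0.37 in FW petals. With the floor of 100 they were 4.81, 3.40 and 3.13 in leaves, 0.045, 0.00 and 0.00 in FGD petals and 0.00 for each in FW petals. Without scaling the leaf bounds were 7.83, 6.41 and 6.15. Leaving out single arrays gave 8.44 to 8.95, 7.07 to 7.53 and 6.79 to 7.25 in leaves, 3.10 to 3.73, 1.87 to 2.53 and 1.90 to 2.51 in FGD petals, and 2.501 to 2.91, 1.05 to 1.64 and 0.77 to 1.09 in FW petals. The detection pattern was shown by 186 probes when 2 of 3 arrays sufficed in the other groups and by 74 with the mark for a positive and significant signal. The authors' log2 table holds no detection limit, so no bound was computed from it.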
